A study of Mus musculus with 20 samples.

Results

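Transcript levels of 10 genes of the NRF2 antioxidant and glutathione system were examined in mouse RAW264.7 cells exposed to the osteoclast-inducing cytokine RANKL, to the BET bromodomain inhibitor I-BET, or to both. The genes were taken by symbol: Nfe2l2, Keap1, Slc7a11, Gclc, Gclm, Gsr, Txnrd1, Srxn1, Hmox1 and Nqo1, which are 10 of the 50686 genes counted. All 10 passed the filter on low counts that left 16042 genes for testing. RAW264.7 is an established monocyte and macrophage line that can form osteoclast-like cells under RANKL; the samples' source field reads bone marrow, whereas the cell-line field names the line. Poly(A) RNA was sequenced from 20 libraries in 10 groups of 2. One group was untreated at hour 0, and 9 groups had received RANKL at 50 ng/ml, I-BET at 500 nM, or RANKL plus I-BET at those doses for 4, 14 or 24 h. No group is labelled as carrying a genetic change. Untreated cells are labelled hour 0 alone, so treatment and time in culture cannot be told apart in any comparison with them. Their library names begin with a 4, as those of the 4 h libraries do; what it marks there is not stated, and hour 0 is taken from the labels. The labels do not say whether the 2 libraries of a group came from separate cultures; the spread on which every p-value rests is that between these libraries and may be technical.

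NRF2, encoded by Nfe2l2, is a transcription factor that the adaptor KEAP1 holds at low abundance by directing it to ubiquitin-dependent degradation. When oxidants or electrophiles modify KEAP1, NRF2 accumulates, pairs with small MAF proteins and binds antioxidant response elements, short motifs near genes for glutathione synthesis, thioredoxin reduction, heme breakdown and detoxification. This control acts largely on the protein, so transcript levels of Nfe2l2 and Keap1 do not report NRF2 activity. In macrophages these genes are known for limiting oxidative and inflammatory damage, and reactive oxygen species are among the signals known to act downstream of RANKL.

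The promoters show where the antioxidant response element core lies near members of the set. RefSeq (GRCm38.p6) start-site windows, which run from 250 bases before to 50 bases after a start, were matched by symbol for 7 of the 10 genes, and Txnrd1 has 3 of them, giving 9 windows. Hmox1, Gclc and Gsr had no matching entry. The motif was searched on both strands as TGACNNNGC or TGAGNNNGC, where N is any base. At least 1 match lay in 5 of the 9 windows, belonging to 5 of the 7 genes, against 27.8% of all 32851 windows of the same length. TGACNNNGC alone was present in 12.4% of all windows and TGAGNNNGC alone in 17.6%. The AP-1 motif TGACTCA, present in 5.2% of all windows, occurred in the Srxn1 window at 45 and 102 bases before the start, the first inside an element match and the second apart from any, and in no other window of the set. The E-box CACGTG, present in 7.15% of all windows, was in none of the 9. The 250 bases before the start are shown for the 5 genes with a match, 5′ to 3′ on the gene's strand, with the matched bases in capitals (a match on the opposite strand appears as its reverse complement). They lie at chr2:75704664-75704913 on the minus strand (Nfe2l2), chr3:50443614-50443863 on the minus strand (Slc7a11), chr3:122245307-122245556 on the plus strand (Gclm), chr10:82858956-82859205 on the plus strand (Txnrd1) and chr2:152105274-152105523 on the plus strand (Srxn1).
Nfe2l2: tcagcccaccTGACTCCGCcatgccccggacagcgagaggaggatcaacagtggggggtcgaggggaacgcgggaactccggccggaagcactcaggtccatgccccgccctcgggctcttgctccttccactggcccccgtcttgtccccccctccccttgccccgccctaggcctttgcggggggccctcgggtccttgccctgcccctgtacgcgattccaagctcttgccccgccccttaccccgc
Slc7a11: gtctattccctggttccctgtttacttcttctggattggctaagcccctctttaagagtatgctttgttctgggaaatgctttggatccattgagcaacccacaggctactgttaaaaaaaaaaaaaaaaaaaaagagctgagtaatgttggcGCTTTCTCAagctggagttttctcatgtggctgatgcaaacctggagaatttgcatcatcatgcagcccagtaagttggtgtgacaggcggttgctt
Gclm: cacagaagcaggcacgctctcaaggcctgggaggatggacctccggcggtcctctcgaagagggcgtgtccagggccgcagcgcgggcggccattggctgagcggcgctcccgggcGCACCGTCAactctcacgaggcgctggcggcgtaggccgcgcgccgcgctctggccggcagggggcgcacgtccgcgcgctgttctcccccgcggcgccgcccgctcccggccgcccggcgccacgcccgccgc
Txnrd1: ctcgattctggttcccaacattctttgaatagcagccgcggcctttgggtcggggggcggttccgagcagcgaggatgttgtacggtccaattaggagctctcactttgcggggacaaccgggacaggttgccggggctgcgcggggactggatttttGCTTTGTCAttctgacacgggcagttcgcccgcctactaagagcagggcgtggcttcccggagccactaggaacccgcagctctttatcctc
Srxn1: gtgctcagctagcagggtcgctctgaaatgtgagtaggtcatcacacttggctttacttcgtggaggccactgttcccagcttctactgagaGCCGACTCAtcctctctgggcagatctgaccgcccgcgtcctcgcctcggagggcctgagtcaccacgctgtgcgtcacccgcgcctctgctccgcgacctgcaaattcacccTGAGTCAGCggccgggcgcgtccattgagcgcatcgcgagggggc
The match began 240 bases before the start in Nfe2l2, 97 in Slc7a11, 134 in Gclm and 92 in Txnrd1, and Srxn1 had matches at 158 and 45 bases before it. Srxn1 also had a TGACNNNGC match 28 bases after the start, outside the bases shown. A match describes these letters only and is not a measured binding site.

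Library totals ran from 19051780 to 62313792 counts, and the smallest was untreated library 1. Untreated library 2 stood apart: 5 mitochondrial and ribosomal-type transcripts (CT010467.1, Lars2, Gm23935, mt-Rnr2 and mt-Rnr1) held 10.1% of its counts, against 0.37% to 1.19% in the other 19. Calls against untreated cells, with or without the library-number term described next, are therefore also given without it where that ends them. The summed RPKM (reads scaled by gene length and library total) of 10 macrophage markers was 4993 to 5186 in untreated cells, 1427 to 1698 after 24 h of RANKL, 3692 to 3697 after 24 h of I-BET and 2658 to 3067 after 24 h of both. That of 10 osteoclast markers was 75.2 to 141, 327 to 431, 19.9 to 24.2 and 21.3 to 29.8 in the same order. Lyz2 weighed most in the macrophage sum, with a median of 2823 RPKM over all libraries against at most 378.5 for any other macrophage marker. By the test described below, 7 of the 10 macrophage markers fell after 24 h of RANKL (18.9% of tested genes called). Cd68, Cd14 and Spi1 were not called there (log2 -0.23, -1.23 and 0.33). Of 9 tested osteoclast markers, 6 rose and none fell after 24 h of RANKL (18.9% called). Nfatc1, which reached the highest RPKM of the osteoclast markers (186.5), was not called there (log2 0.89). After 24 h of I-BET 6 fell and 1 rose (17.7% called), the rise being Itgb3, at most 0.0741 RPKM in any library. Marker sums of 12 genes of other cell types (epithelial, lymphoid, fibroblast, endothelial and others) stayed at or below 0.356 RPKM in all libraries, and 4 of the 12 were at 0 throughout. In bulk RNA, fewer cells of a type and less RNA per cell cannot be told apart, and the part that these marker shifts play in the results was not tested.

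The library number divided most of the set. CPM, counts scaled to TMM-adjusted library totals, were higher in library 1 than in library 2 in all 10 groups for Gclc, Gclm, Txnrd1 and Gsr, in 9 for Nfe2l2 and Srxn1, and in 8 for Slc7a11, Hmox1 and Nqo1. Keap1 went the other way in all 10 groups. With the number as a term beside the groups, library 2 differed from library 1 by 0.33 on the log2 scale for Keap1 and by -0.37 for Gsr (adjusted p 1.8e-07 and 4.9e-08). The same term was called for every member but Hmox1 (adjusted p 0.0707), and across the genome for 55.9% of tested genes. A difference by number was thus common, and whether it was more so in the set was not tested. What the number marks is not stated. Calls below come from the model without it, and the adjusted p with it is given as the blocked p where it changes a call. Log2 values are those of the model without it unless called blocked.

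**Figure D1:**
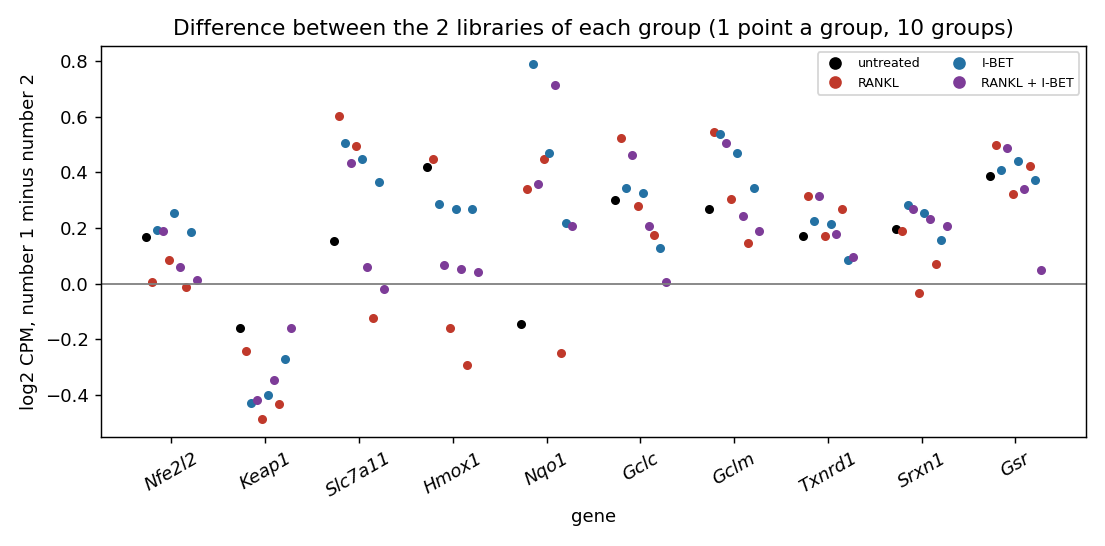
Difference in log2 CPM between library 1 and library 2 of each group (y axis, 1 point a group, 10 groups a gene) for the 10 genes (x axis), coloured by treatment. All 10 points of Gclc, Gclm, Txnrd1 and Gsr lie above 0 and all 10 of Keap1 lie below it.

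A gene was called when its adjusted p was below 0.05 in edgeR's quasi-likelihood test with Benjamini-Hochberg adjustment over all tested genes. Of the 180 pairs of gene and comparison (10 genes, 18 comparisons), 50 were called, and 28 of these 50 were lost when some 1 library was left out. The comparisons of RANKL and of I-BET with untreated cells share the untreated libraries, and those of RANKL plus I-BET with RANKL share the RANKL libraries with RANKL against untreated. Values from them stand side by side here without a test of their likeness.

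After 4 h of RANKL, Slc7a11, Srxn1 and Txnrd1 rose and no member fell, so 3 of 10 rose where 2.08% of all tested genes did. After 14 h, 3 of 10 fell (Nfe2l2, Hmox1 and Gclc; 10.1% of tested genes fell) and none rose. After 24 h, 6 of 10 fell (Nfe2l2, Slc7a11, Hmox1, Nqo1, Gclc and Gclm; 10.9% of tested genes fell) and none rose. The median log2 change of the 10 members went from 0.40 at 4 h to -0.11 at 14 h and -0.63 at 24 h, where the median over all tested genes was 0.01, 0.03 and 0.05.

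After 4 h of I-BET alone, 4 of 10 members rose (Hmox1, Gclc, Txnrd1 and Srxn1; 4.03% of tested genes rose) and none fell. With the block, 5 rose and 2 fell, where 29% of tested genes were called in either direction. At 14 h only Slc7a11 was called, and it fell, 1 of 10 where 8.37% of tested genes fell; the blocked count was 3 that fell (29.8% of tested genes called). At 24 h Slc7a11 fell and Nfe2l2 rose, against 10.2% of tested genes that fell and 7.5% that rose; the blocked counts were 3 and 1 (36.2% called).

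Adding I-BET to RANKL gave at 4 h a rise of Srxn1 and a fall of Slc7a11 relative to RANKL alone (4.93% of tested genes rose and 6.46% fell), and the blocked counts were 5 and 1 (28.1% called). At 14 h Nfe2l2 and Hmox1 were higher and Slc7a11 lower (10.8% and 11.2% of tested genes). At 24 h Nfe2l2, Hmox1 and Gclc were higher and Slc7a11 lower (13.9% and 12.9% of tested genes). Adding RANKL to I-BET changed few genes anywhere: at 4 h Slc7a11 and Srxn1 rose relative to I-BET alone, 2 of 10 where 0.48% of tested genes rose. At 14 and 24 h no member was called by edgeR, with 0.904% and 0.262% of tested genes called in either direction. An unadjusted p below 0.05 was reached by 2 members at 14 h and 1 at 24 h, DESeq2 called 1 and 0, and the blocked counts were 3 and 2 (6.58% and 2.95% of tested genes called).

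**Figure D2:**
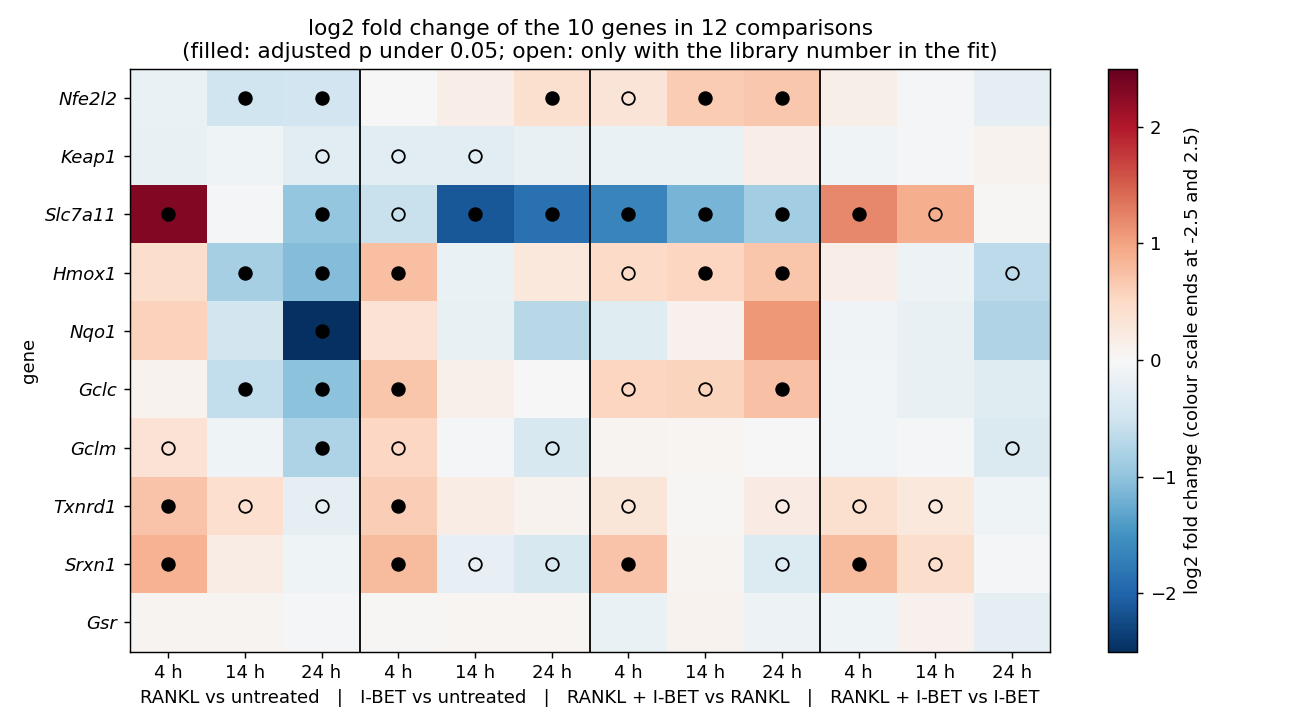
Log2 fold change (colour, scale ending at -2.5 and 2.5) of the 10 genes (rows) in 12 comparisons (columns), with filled circles where the adjusted p was below 0.05 and open circles where it was so only with the library number in the fit. Slc7a11 is filled in the first column as a rise and in all 3 columns of RANKL plus I-BET against RANKL as a fall.

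Levels per length placed the members over a wide range. The median RPKM over the 20 libraries was 86.0 for Txnrd1, 68.0 for Gsr, 58.0 for Gclc, 47.2 for Nfe2l2, 38.5 for Hmox1, 29.4 for Srxn1, 20.7 for Gclm, 13.4 for Keap1, 1.57 for Slc7a11 and 0.376 for Nqo1. Slc7a11 had the widest span in proportion, from 0.549 to 17.2 RPKM. Nqo1 rested on 4 to 64 counts a library. The values that follow are CPM, for library 1 and library 2 in that order.

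**Figure D3:**
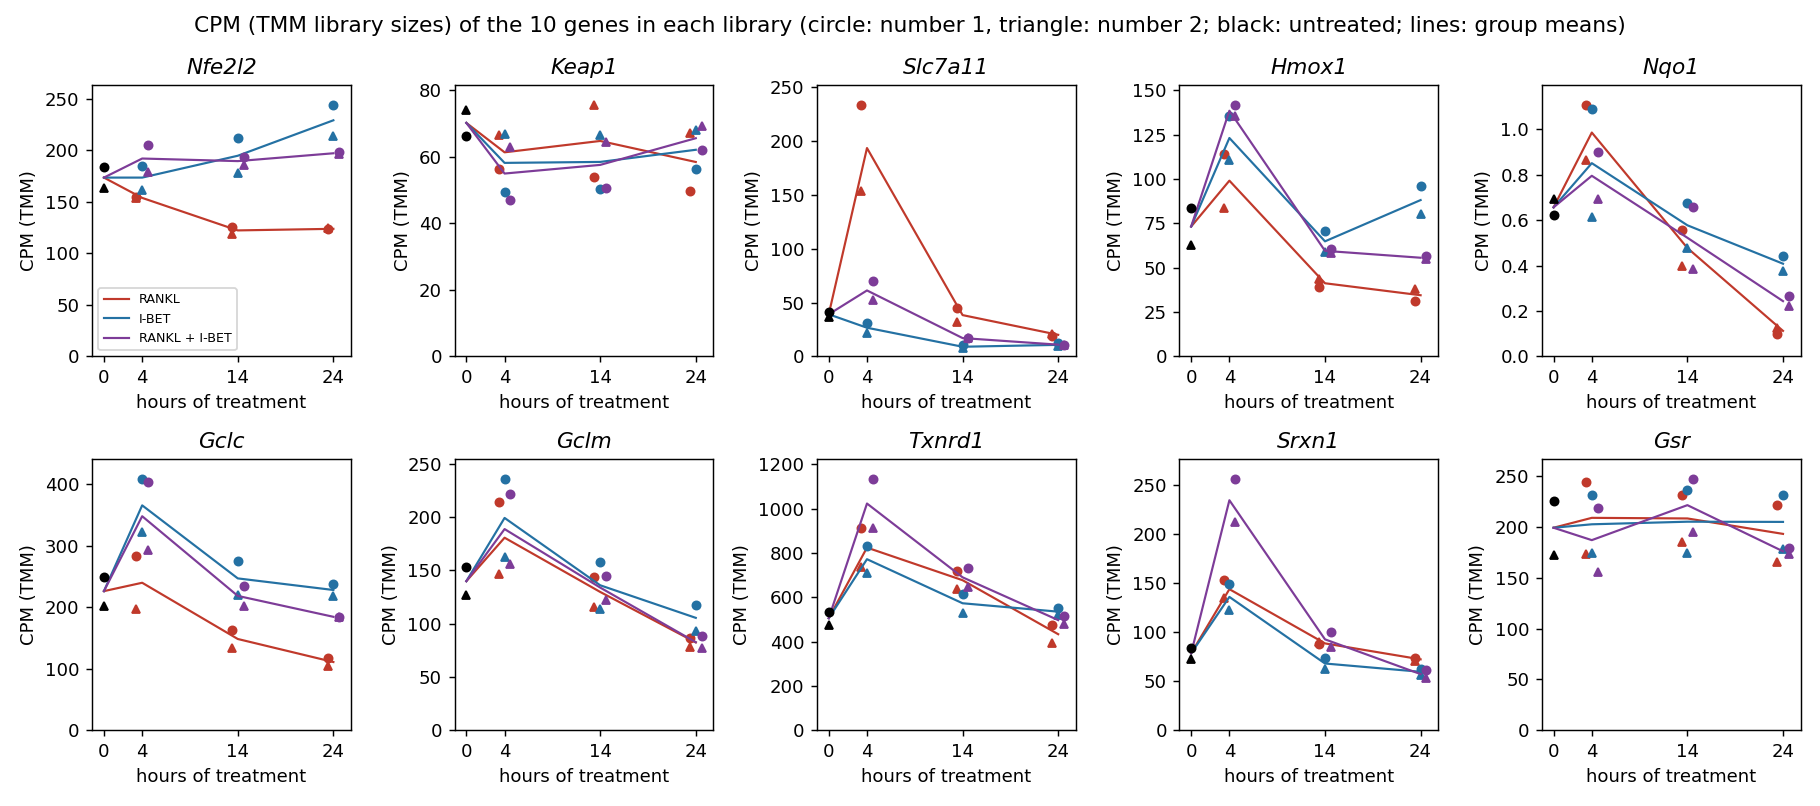
CPM on TMM-scaled library sizes (y axes from 0, each panel on its own scale) of each gene in each library against hours of treatment (x axes), with circles for library 1, triangles for library 2, black for untreated and lines through group means. Slc7a11 stands at 234 and 154 after 4 h of RANKL, above every other library, and Gsr stays between 156 and 248 in all groups.

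Nfe2l2 (ENSMUSG00000015839; mm10 chr2:75675513-75704641, minus strand) encodes NRF2 itself. Its CPM was 184 and 164 in untreated cells and then 154 and 154, 126 and 119, and 123 and 124 after 4, 14 and 24 h of RANKL. With I-BET it was 185 and 162, 212 and 178, and 244 and 214 at those times. With both agents it was 205 and 179, 194 and 186, and 198 and 196. All RANKL libraries at 14 and 24 h lay below every other library, and the I-BET libraries at 24 h lay above every untreated one. The log2 change under RANKL was -0.50 (SE 0.11, adjusted p 0.00477) at 14 h and -0.49 (SE 0.11, adjusted p 0.00573) at 24 h. Without untreated library 1 these adjusted p-values became 0.0581 and 0.0638. I-BET alone gave 0.40 (SE 0.11, adjusted p 0.0191) at 24 h, which was not called without untreated library 2 (0.175) or without library 1 of that I-BET group (0.149). Relative to RANKL alone, RANKL plus I-BET gave 0.63 at 14 h and 0.67 at 24 h (SE 0.11 each, adjusted p 0.000779 and 0.00037), and no single library ended either call. At 4 h the value was 0.32 (adjusted p 0.0755, blocked p 0.00164).

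Keap1 (ENSMUSG00000003308; chr9:21229730-21239332, minus strand), the adaptor that marks NRF2 for degradation, was called in none of the 18 comparisons. Its CPM ran from 47.0 and 62.9 after 4 h of both agents to 66.3 and 74.0 in untreated cells, and neighbouring groups overlapped throughout the order of means. With the library number in the fit it was called in 5 comparisons. In blocked log2 values, these were falls against untreated cells of -0.27 after 24 h of RANKL, -0.28 after 4 h of I-BET and -0.27 after 14 h of I-BET (blocked p 0.0116, 0.0131 and 0.0141). The fourth was a rise of 0.27 from 4 to 24 h of both agents (blocked p 0.0124), and the last is an interaction given below.

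Slc7a11 (ENSMUSG00000027737; chr3:49892526-50443614, minus strand) encodes xCT, the subunit of the cystine/glutamate antiporter that brings in cystine for glutathione synthesis. Untreated cells had 41.3 and 37.1 CPM. RANKL gave 234 and 154 at 4 h, 45.0 and 31.9 at 14 h, and 19.3 and 21 at 24 h. The 4 h RANKL libraries lay above all others, and those at 24 h lay below untreated cells.

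The rise of Slc7a11 after 4 h of RANKL was 2.31 on the log2 scale (SE 0.25, adjusted p 0.000134), at 14 h the difference was -0.03 (SE 0.24, adjusted p 0.968), and at 24 h it had fallen by 0.96 (SE 0.24, adjusted p 0.013). The last call ended without untreated library 1 (0.0731) or library 1 of the 24 h RANKL group (0.0876). I-BET alone gave 31.3 and 22.1 CPM at 4 h, 10.4 and 7.65 at 14 h, and 12.2 and 9.44 at 24 h. All 6 I-BET libraries lay below both untreated ones. The log2 change was -0.55 at 4 h (SE 0.24, adjusted p 0.179, blocked p 0.00921, or 0.12 without untreated library 2), -2.11 at 14 h (SE 0.25, adjusted p 7.8e-05) and -1.86 at 24 h (SE 0.25, adjusted p 0.000138).

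With both agents Slc7a11 stood at 70.5 and 52.2 CPM at 4 h, 17.5 and 16.8 at 14 h, and 10.9 and 11.1 at 24 h. At each time both libraries were below both RANKL libraries. The log2 difference from RANKL alone was -1.66 at 4 h, -1.17 at 14 h and -0.87 at 24 h (SE 0.24, 0.24 and 0.25, adjusted p 0.000636, 0.00324 and 0.0166). The 24 h call ended whichever of the 4 libraries was left out (0.0519 to 0.0851). At 4 h both libraries with both agents also lay above the untreated and the I-BET libraries. Relative to I-BET alone the log2 difference was 1.2 at 4 h (SE 0.24, adjusted p 0.0455), a call that ended without any 1 of the 4 libraries (0.073 to 0.616), and 0.91 at 14 h (SE 0.25, adjusted p 0.135, blocked p 0.00232). At 24 h it was 0.02.

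Gclc (ENSMUSG00000032350; chr9:77754535-77794485, plus strand) encodes the catalytic subunit of glutamate-cysteine ligase, the rate-limiting enzyme of glutathione synthesis. Untreated cells had 250 and 202 CPM. RANKL gave 283 and 196, 163 and 134, and 118 and 104 at 4, 14 and 24 h. I-BET gave 408 and 322, 274 and 219, and 238 and 218. The 4 h I-BET libraries lay above both untreated ones, and the RANKL libraries at 14 and 24 h lay below them.

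The log2 change of Gclc under RANKL was -0.61 at 14 h (SE 0.20, adjusted p 0.0495) and -1.03 at 24 h (SE 0.20, adjusted p 0.00249). The 14 h call ended without any 1 of the 4 libraries (0.0669 to 0.29), whereas the 24 h call did not end for any. I-BET alone gave 0.69 at 4 h (SE 0.20, adjusted p 0.0416), again lost without any 1 of the 4 (0.0666 to 0.278). With both agents Gclc stood at 403 and 292, 234 and 202, and 185 and 184 CPM. At all 3 times these libraries lay above both RANKL libraries of the same hour. The log2 differences from RANKL alone were 0.54, 0.56 and 0.73 (adjusted p 0.111, 0.0619 and 0.0143). The blocked p was 0.000143 at 4 h and 4.7e-05 at 14 h. The 24 h call ended without RANKL library 2 (0.0789) or either library with both agents (0.0559 and 0.0568).

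Gclm (ENSMUSG00000028124; chr3:122245557-122269984, plus strand), the modifier subunit of the same enzyme, fell under RANKL at 24 h. Untreated cells had 153 and 127 CPM and the 24 h RANKL libraries 86.5 and 78.2, a log2 change of -0.76 (SE 0.24, adjusted p 0.0421). That call ended without any 1 of the 4 libraries (0.0705 to 0.213). After 4 h the CPM was 214 and 147 with RANKL, 236 and 162 with I-BET, and 221 and 156 with both. The libraries with I-BET, alone or with RANKL, lay above both untreated ones, and the RANKL libraries overlapped them. The blocked p against untreated was 0.00911 for 4 h of RANKL (log2 0.37) and 0.000317 for 4 h of I-BET (log2 0.51). At 24 h I-BET gave 118 and 92.9 CPM (log2 -0.41, adjusted p 0.298, blocked p 0.000984). RANKL plus I-BET at 24 h gave 88.0 and 77.1 CPM, which overlapped RANKL alone, whereas Gclc did not overlap there; the difference between the subunits was not tested. Relative to I-BET alone it was at -0.35 (adjusted p 1, blocked p 0.0403).

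Gsr (ENSMUSG00000031584; chr8:33652523-33698163, plus strand), the glutathione reductase that returns oxidised glutathione to its reduced form, was called in no comparison with or without the block. Its log2 change lay between -0.22 and 0.11 over the 18 comparisons, and its smallest adjusted p was 0.736. The CPM was 226 and 173 in untreated cells, and library 1 was the higher in every group.

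Txnrd1 (ENSMUSG00000020250; chr10:82859206-82897724, plus strand) encodes cytosolic thioredoxin reductase, which keeps thioredoxin reduced. Its CPM was 535 and 476 in untreated cells. At 4 h it was 913 and 735 with RANKL, 832 and 711 with I-BET, and 1134 and 911 with both, all above untreated cells. The log2 rise was 0.70 with RANKL (SE 0.15, adjusted p 0.0147) and 0.61 with I-BET (SE 0.15, adjusted p 0.0179). The RANKL call ended without untreated library 2 (0.2) or RANKL library 1 (0.181). The I-BET call ended without untreated library 1 (0.0536) or 2 (0.148), or without I-BET library 1 (0.117).

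At 14 h Txnrd1 stood at 717 and 636 CPM with RANKL, 615 and 530 with I-BET, and 732 and 648 with both. At 24 h the values were 473 and 393, 550 and 519, and 513 and 480. The RANKL libraries were above untreated cells at 14 h and below them at 24 h, with log2 changes of 0.42 (adjusted p 0.0635, blocked p 6.09e-05) and -0.22 (adjusted p 0.347, blocked p 0.0141, or 0.074 without untreated library 2). RANKL plus I-BET differed from RANKL alone by 0.31 at 4 h and 0.20 at 24 h (adjusted p 0.226 and 0.359, blocked p 0.00176 and 0.0204). From I-BET alone it differed by 0.41 at 4 h and 0.27 at 14 h (adjusted p 0.581 and 0.684, blocked p 0.00147 and 0.0212).

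Srxn1 (ENSMUSG00000032802; chr2:152105516-152111376, plus strand) encodes sulfiredoxin, which repairs over-oxidised peroxiredoxins, and its window above held 2 matches before the start. Untreated cells had 83.8 and 73.0 CPM. At 4 h the gene stood at 153 and 134 with RANKL, 149 and 123 with I-BET, and 256 and 213 with both. All 6 treated libraries lay above untreated cells, and both with the 2 agents together lay above the other 4.

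The log2 rise of Srxn1 at 4 h was 0.88 with RANKL and 0.79 with I-BET (SE 0.14 each, adjusted p 0.00274 and 0.00298). Without untreated library 2 the RANKL call ended (0.0726). RANKL plus I-BET was 0.71 above RANKL alone (SE 0.14, adjusted p 0.00502) and 0.79 above I-BET alone (SE 0.14, adjusted p 0.021). The first of these ended without RANKL library 2 (0.0654) or library 1 with both agents (0.0553). The second ended without I-BET library 1 (0.0587) or 2 (0.362) or library 1 with both agents (0.235).

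By 14 h Srxn1 was at 87.5 and 89.5 CPM with RANKL, 74.0 and 62 with I-BET, and 100 and 85.2 with both. At 24 h it was at 74.0 and 70.5, 62.8 and 56.3, and 61.3 and 53.1. The 24 h libraries with I-BET, alone or with RANKL, lay below all untreated and all 24 h RANKL libraries. None of these 14 and 24 h differences was called without the block. In blocked log2 values, I-BET against untreated was -0.21 at 14 h and -0.39 at 24 h (blocked p 0.0366 and 0.000204), and the 14 h call ended without untreated library 2 (0.182). RANKL plus I-BET was -0.34 from RANKL at 24 h (blocked p 0.000555) and 0.45 from I-BET at 14 h (blocked p 0.000481).

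Hmox1 (ENSMUSG00000005413; chr8:75093591-75100596, plus strand) encodes heme oxygenase 1, which opens heme to biliverdin, iron and carbon monoxide. Untreated cells had 83.7 and 62.6 CPM. RANKL gave 114 and 83.7, 39.0 and 43.5, and 31.0 and 38.0 at 4, 14 and 24 h. I-BET gave 135 and 111, 70.8 and 58.9, and 96.2 and 80.0, and both agents gave 142 and 135, 60.6 and 58.4, and 56.4 and 54.8. The RANKL libraries at 14 and 24 h lay below all other libraries, and the 4 h libraries with I-BET, alone or with RANKL, lay above both untreated ones.

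The log2 change of Hmox1 under RANKL was -0.83 at 14 h and -1.08 at 24 h (SE 0.18 each, adjusted p 0.0048 and 0.000629), and the 14 h call ended without untreated library 1 (0.0697). I-BET alone gave 0.75 at 4 h (SE 0.18, adjusted p 0.015), not called without untreated library 2 (0.177) or I-BET library 1 (0.112). RANKL plus I-BET exceeded RANKL by 0.53 at 14 h and 0.69 at 24 h (SE 0.18 each, adjusted p 0.0454 and 0.00962). The 14 h call ended without any 1 of the 4 libraries (0.0809 to 0.187), and the 24 h call without RANKL library 1 (0.0945) or library 1 with both agents (0.0501). At 4 h that difference was 0.48 (adjusted p 0.0996, blocked p 0.0186). At 24 h RANKL plus I-BET was 0.66 below I-BET alone (log2 -0.66, adjusted p 0.249, blocked p 0.0258).

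Nqo1 (ENSMUSG00000003849; chr8:107388225-107403206, minus strand), a quinone reductase widely used as an NRF2 target, was barely counted in these cells. Its CPM was 0.621 and 0.691 in untreated cells, 1.11 and 0.864 after 4 h of RANKL, 0.558 and 0.397 after 14 h, and 0.0991 and 0.126 after 24 h. The 2 libraries at 24 h of RANKL held 9 counts in all and lay below all other libraries. The log2 change from untreated was -2.52 (SE 0.45, adjusted p 0.00124). RANKL plus I-BET at 24 h had 0.264 and 0.223 CPM, 25 counts in all, and differed from RANKL alone by 1.09 (SE 0.47, adjusted p 0.109). These counts limit the precision of every Nqo1 value.

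From 4 to 24 h of the same treatment, falls outnumbered rises among the members. Under RANKL 7 of 10 fell (12.6% of tested genes fell), under I-BET 5 fell and 1 rose (5.52% and 4.91%), and under both 7 fell (8.35%). The median log2 change of the 10 was -1.05, -0.61 and -1.12, against medians over all tested genes of 0.01, -0.01 and -0.05. Slc7a11 changed by -3.27 under RANKL, -1.30 under I-BET and -2.48 under both (adjusted p 1.12e-06, 0.00387 and 2.4e-05). Srxn1 changed by -0.99, -1.19 and -2.03 (adjusted p 0.00017, 0.000153 and 1.16e-06), and Txnrd1 by -0.93, -0.53 and -1.04 (adjusted p 0.000451, 0.0354 and 0.000328). The I-BET call of Txnrd1 ended without any 1 of its 4 libraries (0.0568 to 0.214), and that of Slc7a11 without I-BET library 2 at 24 h (0.0562).

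The glutathione synthesis pair fell over the same interval in all 3 treatments. Gclc changed by -1.11, -0.68 and -0.92 (adjusted p 0.00121, 0.0449 and 0.00658) and Gclm by -1.13, -0.92 and -1.19 (adjusted p 0.00402, 0.0281 and 0.00423). Leaving out any 1 of 4 libraries ended the I-BET call of Gclc (0.0583 to 0.265), and 3 of 4 ended that of Gclm (4 h library 1, 0.223; 24 h library 1, 0.0563; 24 h library 2, 0.206). Under both agents, 4 h library 1 and 24 h library 2 each ended the calls of Gclc (0.0825 and 0.0559) and of Gclm (0.0518 and 0.0565), and without RANKL library 1 at 4 h Gclm gave 0.0563 under RANKL. Hmox1 changed by -1.52 under RANKL and -1.32 under both (adjusted p 3.42e-05 and 0.000218), and by -0.48 under I-BET (adjusted p 0.0999, blocked p 0.0198).

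Nqo1 changed from 4 to 24 h by -3.10 under RANKL and -1.70 under both (adjusted p 0.000137 and 0.00706), and the second call ended without library 1 at 4 h (0.063) or library 2 at 24 h (0.0804). Under I-BET it was -1.05 (adjusted p 0.0794, blocked p 0.013). Nfe2l2 was the one member called upward: it changed by 0.40 under I-BET (adjusted p 0.0302), a call that ended without library 2 at 4 h (0.229) or library 1 at 24 h (0.196). Under RANKL it changed by -0.31 (adjusted p 0.0521, blocked p 0.00113).

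Whether the I-BET difference was unlike with and without RANKL was tested as an interaction. From RANKL plus I-BET minus RANKL at a given hour it takes away I-BET at that hour minus untreated at hour 0. The part without RANKL therefore also holds time in culture, which cannot be told apart from I-BET there. No member was called at 4, 14 or 24 h by edgeR (0, 2.78% and 5.25% of tested genes called). An unadjusted p below 0.05 was reached by 1, 3 and 3 members, and DESeq2 called 0 at each time. With no filter on low counts edgeR called 1, 1 and 2 (Slc7a11 at each time and Gclc at 24 h), and with the libraries of each comparison alone it called Slc7a11 at 24 h (adjusted p 0.0443). With the block, 1, 4 and 5 members were called, against 1.22%, 11.7% and 18.3% of tested genes. At 4 h it was Slc7a11, at a blocked log2 value of -1.08 (blocked p 0.0162), which was not called without untreated library 2 (0.0661).

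At 14 h the blocked interaction was called for Nfe2l2 at 0.47, Slc7a11 at 0.98, Hmox1 at 0.69 and Gclc at 0.44 (blocked p 0.00269, 0.00704, 0.0457 and 0.031). At 24 h it was called for Keap1 at 0.36, Slc7a11 at 1.0, Nqo1 at 1.84, Gclc at 0.72 and Gclm at 0.41 (blocked p 0.0339, 0.00513, 0.031, 0.000439 and 0.0267). With the block but without untreated library 2, which enters all 3 tests, 3 members were called at 14 h and 3 at 24 h. The calls that ended were those of Gclc at 14 h (0.078) and of Nqo1 and Gclm at 24 h (0.161 and 0.0966).

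Lists of other genes of the system were counted in the same fits. Of 8 heme and iron genes, 5 fell and none rose after 24 h of RANKL (list median -0.91), and 5 rose and none fell when I-BET was present with RANKL for 24 h (median 0.57). Fth1, the ferritin heavy chain, changed by -1.22 and then 0.86 (adjusted p 2.25e-06 and 3.79e-05), and Slc48a1, a heme transporter, by -1.05 under RANKL (adjusted p 5.88e-06). The genes that fell and those that rose were not all the same. With I-BET added, Slc48a1 was at -0.04 (adjusted p 0.807). Ftl1, the ferritin light chain, was then 2.12 higher (adjusted p 0.000127), while its fall under RANKL was not called (-0.87, adjusted p 0.0517). Ferritin genes have near-identical copies, so their counts are uncertain. Of 9 genes that supply NADPH, 4 fell and none rose after 24 h of RANKL (median -0.25), and 6 rose and 1 fell when I-BET was added (median 0.52). G6pdx, which starts the pentose phosphate pathway, changed by -0.86 and 0.89 (adjusted p 0.000218 and 0.000118). In this list too, the genes that fell and those that rose were not all the same. These 2 comparisons share the 24 h RANKL libraries, and they called 18.9% and 26.8% of all tested genes.

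The glutathione list had 34 genes, of which 22 were tested. After 24 h of RANKL 1 rose and 6 fell (18.9% of all tested genes called). With RANKL plus I-BET against RANKL at 24 h, 5 rose and 2 fell (26.8% of all tested genes called). Mgst3, a microsomal glutathione transferase, changed by -2.17 and 1.75 (adjusted p 2.1e-05 and 9.3e-05). After 24 h of I-BET 0 of the 22 rose and 3 fell, where 17.7% of all tested genes were called, and Gpx1, a glutathione peroxidase, changed by -1.0 (adjusted p 0.00105). Of 12 detoxification genes 1 rose and 6 fell after 24 h of RANKL (median -0.55, beside 18.9% of all tested genes called). With I-BET added 3 rose and 2 fell, beside 26.8% called. Ephx1, a microsomal epoxide hydrolase, was then 1.31 higher and Akr1b8, an aldo-keto reductase, was at -1.46 (adjusted p 4.17e-05 and 0.00262).

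Of 17 tested thioredoxin, peroxiredoxin and superoxide dismutase genes, 8 rose and none fell after 24 h of I-BET (17.7% of all tested genes called). After 24 h of RANKL 5 rose and 3 fell (18.9% called), and the difference between the treatments was not tested. Txnip, which binds and inhibits thioredoxin, rose by 0.96 with I-BET (adjusted p 1.42e-06) and by 1.51 with RANKL plus I-BET against RANKL (adjusted p 2.95e-08). Txnrd3, a relative of Txnrd1, rose by 1.54 after 24 h of RANKL (adjusted p 2.7e-06). Of 14 regulators of NRF2 and its partners, 1 rose after 4 h of RANKL, where 3.91% of all tested genes were called. It was Sqstm1, which encodes the KEAP1-binding autophagy receptor p62 (1.03, adjusted p 8.89e-05). Bach1, a repressor at the same elements, was 0.56 higher in RANKL plus I-BET than in RANKL at 24 h (adjusted p 0.00704, 0.0895 without library 1 with both agents). Of 15 tested genes of the ATF4 amino acid response, which also acts on Slc7a11, 1 rose and 1 fell after 4 h of RANKL, again beside 3.91% of all tested genes. After 14 h of RANKL 4 rose and 1 fell (18.4% called), and with I-BET added 4 rose and 5 fell (22.1% called). Atf3 changed by -3.58 and 2.27 in these comparisons (adjusted p 7.8e-06 and 0.000216). Cth changed by 2.41 and -2.52 (adjusted p 1.39e-05 and 7.31e-06). Both comparisons use the 14 h RANKL libraries. Sesn2, which stands in this list and in the thioredoxin list, was 1.12 higher in RANKL plus I-BET than in RANKL at 4 h (adjusted p 0.00372) and 1.36 higher than untreated after 24 h of I-BET (adjusted p 0.000567).

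Over the 10 group means, the members did not share one profile. Pearson's r of log2 CPM was 0.944 between Hmox1 and Gclc, 0.931 between Nqo1 and Gclm, 0.913 between Txnrd1 and Srxn1, and 0.858 between Gclm and Txnrd1. It was -0.414 between Nfe2l2 and Slc7a11 and -0.529 between Keap1 and Srxn1. Among 9441 other genes whose mean CPM reached 5, the one most like Nfe2l2 was Snap29 (r 0.985), and for Slc7a11 it was Irg1 (r 0.978). For Hmox1 it was Chpf2 (0.966), for Gclc Arsk (0.993), for Gclm Ybey (0.960), for Nqo1 Slc39a14 (0.980), for Txnrd1 Dcp1a (0.966) and for Srxn1 Mir22hg (0.956). Keap1 and Gsr had weaker matches, Usf2 (0.892) and Zcchc2 (0.768). All points share libraries, and the highest of many correlations over 10 points is a description only.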

How the data were processed

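Poly(A) RNA of RAW264.7 cells was sequenced on a HiSeq instrument as paired reads, per the labels. The authors deposited raw counts per gene and RPKM values; the submitters' processing notes name FastQC, STAR 2.5.3a, DESeq2 1.16.1 and GRCm38/mm10. How reads were counted, and whether by strand: not given in the sources used here. The deposited RPKM equalled the counts scaled by length and library total, so it adds no independent measurement.

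Counts were tested with edgeR 4.0.16 (R 4.3.3): TMM scaling, the default filter on low counts, robust quasi-likelihood fit of 20 libraries with 1 mean per group (10 residual degrees of freedom), Benjamini-Hochberg adjustment over 16042 genes in each of 18 comparisons, called below 0.05. SE is the log2 change over the square root of F. Totals ran from 19051780 to 62313792 counts; low counts limit Nqo1. The fit was also run on simulated counts with known large changes in well-counted genes. They held no difference by library number, so that run does not cover such differences, smaller changes or low counts.

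Libraries with the same number deviated together: the correlation of their deviations from the group means was 0.221 to 0.596 over 45 pairs of groups, so the number was taken to pair libraries. Its term is the block. Pairing comes from the data; the labels do not say what the number marks.

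Alternatives were DESeq2 1.42.0, its size factors (RLE) in edgeR, no filter, limma 3.58.1 on log2(RPKM + 1) and log2(RPKM + 0.1), the libraries of a comparison alone, the block, and each library left out. The members and gene lists were chosen with earlier results of these data known. Named are all members and, per list and family of comparisons, at most 2 called genes of largest change with a mean CPM of at least 5; likeness took genes of the same mean CPM.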

Additional observations from a re-analysis of the deposited data

How the results depend on the processing

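No member result that was called in the main fit or in an alternative had opposite directions in the 2. Changes of sign in results called in neither were not counted. Counts of called members that moved by over 1.5 times were as follows. With the replicate block they were 7 for I-BET against untreated at 4 h, 3 at 14 h and 4 at 24 h, 6 for RANKL plus I-BET against RANKL at 4 h, 3 and 2 for RANKL plus I-BET against I-BET at 14 and 24 h, and 1, 4 and 5 for the interactions at 4, 14 and 24 h; the pairing by library number removed no call. The block without untreated library 2, chosen after seeing the data, gave 2 and 4 for I-BET at 14 and 24 h and 3 and 3 for the interactions at 14 and 24 h. With the libraries of each comparison alone they were 1 for RANKL at 4 h and 1 at 14 h, 2 and 1 for I-BET at 4 and 24 h, 1 for RANKL plus I-BET against RANKL and 0 against I-BET at 4 h, 3 for I-BET from 4 to 24 h, and 1 for the interaction at 24 h. With no filter they were 4 for RANKL plus I-BET against RANKL at 4 h, 1 and 1 against I-BET at 14 and 24 h, and 1, 1 and 2 for the interactions. Both limma fits gave 0 for RANKL plus I-BET against I-BET at 4 h and 3 for I-BET from 4 to 24 h, without Nqo1, which failed the filter of RPKM 1. RLE gave 1 for RANKL plus I-BET against I-BET at 4 h, and DESeq2 1 at 14 h. Leaving out each library in turn gave 1 to 3, 0 to 2 and 3 to 5 for RANKL at 4, 14 and 24 h, 1 to 3, 1 and 1 to 2 for I-BET, 1 to 2, 2 and 1 to 2 for RANKL plus I-BET against RANKL, 0 to 1, 0 and 0 against I-BET, 6 to 7, 2 to 3 and 4 to 7 from 4 to 24 h under RANKL, I-BET and both, and 0 for each interaction.

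Over the member results, 38 of 180 gained a call with the block, 13 with no filter, 3 with DESeq2 and 1 of 179 with the libraries of each comparison alone, and 13 of 179 lost one with the libraries of each comparison alone, 4 of 180 with RLE, 9 and 8 of 162 with limma at pseudocounts of 1 and 0.1, and 1 with no filter. The same alternatives for the named genes of the lists, added after seeing the data, reversed none. The number of libraries, 2 a group, and the few Nqo1 counts limit what could be called.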
